A study of Mus musculus with 19 samples.

Results

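Pi16 adventitial fibroblasts are stromal cells that carry the transcript of Pi16, a secreted peptidase inhibitor used as the name-giving marker of fibroblasts of the vessel sheath and fascia. Here they were 2327 of the 33746 cells kept in 16 libraries of the mouse Achilles tenotomy site, and 2327 of the 10311 stromal cells with at least 1 transcript of Pdgfra, the receptor that marks mesenchymal stroma, and at most 1 of the leukocyte gene Ptprc. They were chosen by their measured transcripts: at least 2 of Pi16, at least 1 of Pdgfra, at most 1 of Ptprc and 0 of Lrrc15 and of Gzme, genes of 2 other stromal states of the injury. The levels of these 5 genes are therefore described below and not tested.

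The study followed heterotopic ossification, the growth of cartilage and bone in soft tissue, after a dorsal scald burn and an Achilles tenotomy (burn/tenotomy). The site was digested to single cells, and their transcripts were counted as unique molecular identifiers (UMIs) after capture in droplets. Day 0 was taken without injury, day 7 and day 21 followed burn/tenotomy, and a further group was harvested at day 7 after p7N3, a peptide that activates the receptor CD47, at 10 mg/kg i.p. daily for 3 days before and 3 days after the injury. Each group held 4 libraries. The labels name C57 mice and LysmCre/Tgfb1fx/fx mice, in which Cre under the Lysm promoter of myeloid cells deletes Tgfb1, for the series together and give no genotype, age or sex for a single library. According to the methods, wild-type mice were young adult male C57BL/6J mice and p7N3 was compared with PBS, but the labels name no vehicle for day 7 and no harvest day for p7N3 replicate 4. The reporting summary states that single-cell runs were repeated to cover differences between mice, but whether a library held 1 mouse or a pool is not stated, so that the spread between libraries may be partly technical.

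The members numbered 119, 44, 98 and 83 in replicates 1 to 4 of day 0, 234, 109, 281 and 130 at day 7, 200, 123, 97 and 179 at day 21 and 116, 249, 124 and 141 with p7N3. They held 2169624, 7572135, 7515751 and 7714550 UMIs in these groups, so that day 0 was the least deeply sampled. Median depths of a member across libraries were 5317 to 6992 UMIs (day 0), 7852 to 10480.5 (day 7), 10669 to 11862 (day 21) and 10583 to 11841 (p7N3). Levels are given as CPM, UMIs of a gene per 1000000 UMIs of the members of a library. Day 0 replicate 1 was deposited with all barcodes before any cell call, of which 1003 passed the same limits, and no pair of libraries shared more than 22 barcodes of kept cells.

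Fibroblasts that express Pi16 together with Dpp4, Cd34 and Clec3b lie in the adventitia, the outer sheath of vessels, and in fascia, where they deposit elastic fibres. They are regarded as a reserve from which more specialized fibroblasts arise, and are known for secreting complement components and chemokines. After tissue injury, activated fibroblasts that make collagen and the matrix protein Cthrc1 appear beside them.

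Pi16 (ENSMUSG00000024011, chr17:29317680-29330593, plus strand; positions are those of GENCODE vM21 on GRCm38) stood at 2275, 3495, 3045 and 2463 CPM in the members of day 0, 1789.9, 1614, 1775 and 1573 at day 7, 1631, 1589.8, 1437 and 1291 at day 21 and 1345, 2519, 1174 and 1263 with p7N3, values that the rule bounds from below. All day 0 libraries were above all day 7 and day 21 libraries, and p7N3 replicate 2 lay above the other p7N3 libraries. The members held 69.2% of all Pi16 UMIs of a library at day 0 on average, 51.1% at day 7, 33.6% at day 21 and 54.8% with p7N3, and 12.5%, 5.45%, 11.05% and 6.20% of all UMIs. Endothelial cells showed 23.0 ± 4.61, 16.4 ± 6.64, 46.9 ± 33.2 and 13.2 ± 7.39 CPM of Pi16 in the same groups (mean ± SD, n = 4). Pdgfra was at 393 ± 33.5 CPM in the members of day 0 and at 238 ± 14.5, 223 ± 50.9 and 232 ± 20.9 CPM in the later groups. The rule sets its limits in UMIs, so that for Pi16 and Pdgfra the bound in CPM is higher at day 0, where members held fewer UMIs. Its part in the higher day 0 levels was not tested.

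Markers that the rule did not use were present in the members. Of 21 genes listed for fibroblast progenitors, the median member of a library held UMIs of 9 (day 0), 7 to 8 (day 7), 6 to 7 (day 21) and 6 to 8 (p7N3) after every cell had been thinned to 1500 UMIs. The median endothelial cell, thinned alike, held UMIs of 2 to 4. Stromal cells within the same limits but with 0 UMIs of Pi16, the Pi16-null fibroblasts below, had medians of 5 to 6 at day 0. In the later groups their medians were 3 to 4. Clec3b (ENSMUSG00000025784, chr9:123150946-123157432, plus strand), which encodes the plasminogen-binding protein tetranectin, had a UMI in 96.1% of thinned members at day 0 and 76.0% at day 7, against 2.98% and 0.915% of thinned endothelial cells, which should lack it. Without thinning the shares were 97.9% and 91.2% of members and 9.59% and 6.66% of endothelial cells, at median depths of 5317 to 6992 and 7852 to 10480.5 UMIs in members and 3088 to 4783 and 7957 to 10772 in endothelial cells. The cells came from digested tissue, so that their place in a vessel wall was not measured.

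Just inside the threshold, 290 members held exactly 2 UMIs of Pi16, and just outside it 625 cells met every other limit but held 1. Clec3b averaged 1217 ± 1138 CPM over 16 libraries in the former and 945 ± 945 in the latter (mean ± SD), and Cd248, which encodes the stromal antigen endosialin, 332 ± 122 and 252 ± 93.6 CPM. Members with 4 or more Pi16 UMIs averaged 2265 ± 1203 CPM of Clec3b and 635 ± 131 of Cd248. Dpp4 (ENSMUSG00000035000, chr2:62330073-62412231, minus strand), which encodes a cell surface dipeptidase, was at 122 ± 22.7 CPM at day 0 and 28.7 ± 8.08 at day 7 in cells with 4 or more Pi16 UMIs and at 18.9 ± 3.51 and 2.68 ± 2.40 CPM in cells with 1. Cthrc1 (ENSMUSG00000054196, chr15:39076932-39087121, plus strand), the matrix protein of activated fibroblasts, showed 1244 ± 185 CPM at day 7 in cells with 4 or more Pi16 UMIs and 1283 ± 525 in cells with 0. Averaged over the 16 libraries, Clec3b and Cd248 had a higher mean at each further Pi16 UMI. The SDs were wider than the steps other than that of Cd248 to 4 or more (409 ± 169.8 to 635 ± 131). These SDs include the differences between the 4 groups and do not measure the spread of a step within a library. At day 21 Clec3b was lower at 3 UMIs (736 ± 49.6) than at 2 (987 ± 289.9). Dpp4 had no such order, at 7.39 ± 8.94, 6.29 ± 7.91, 14.8 ± 29.3 and 12.4 ± 28.1 CPM at 0, 1, 2 and 3 UMIs. Its mean was highest at 4 or more (50.3 ± 44.8), where the libraries of all groups together overlapped with those at fewer UMIs. Within day 0 and within day 7 Dpp4 was higher at 4 or more than at 1, by the values above. These are descriptions over cells that also differ in depth.

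**Figure D1:**
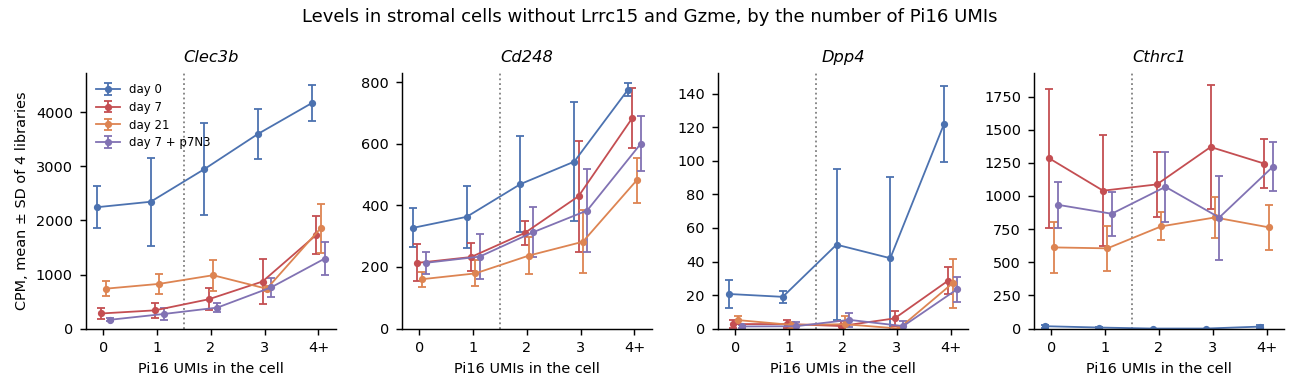
CPM (y axis, linear) of Clec3b, Cd248, Dpp4 and Cthrc1 in stromal cells without Lrrc15 and Gzme, by the number of Pi16 UMIs in the cell (x axis), as mean ± SD of 4 libraries per group. The dotted line marks the lower limit for members, and Clec3b at day 0 goes from 2246 ± 387 CPM at 0 UMIs to 4175 ± 332 at 4 or more.

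The first comparison asked how large a part of the stroma these cells made up over time. They were 39.4, 35.8, 30.0 and 37.4% of the stromal cells in replicates 1 to 4 of day 0 and 27.1, 10.4, 22.8 and 14.9% at day 7. The 2 groups did not overlap, and the mean was lower at day 7 by 16.8 percentage points, from 35.6% ± 4.06 to 18.8% ± 7.55 (SD, n = 4). A two-sided exact permutation test gave p = 0.0286, the smallest that 4 against 4 libraries allow, and adjusted over 4 comparisons p = 0.114, so that the difference did not pass. At day 21 the members were 33.2, 38.0, 32.6 and 24.8% and with p7N3 14.9, 24.2, 18.3 and 15.9% of stromal cells. Day 21 overlapped with day 0 (difference -3.52 points, exact permutation p = 0.371, adjusted 0.495) and with day 7 (13.3 points, p = 0.0571, adjusted 0.114). The groups of p7N3 and day 7 overlapped as well, with a difference of -0.479 points (exact permutation p = 0.971), whose sign turned when p7N3 replicate 1 or 4 or day 7 replicate 1 or 3 was left out (-3.29 to 2.29 points).

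These shares depend on depth and on the limits on Lrrc15 and Gzme. With every cell thinned to 1500 UMIs, the members were 18.7% ± 4.81 of stromal cells at day 0, 14.1% ± 4.89 at day 7, 22.4% ± 4.33 at day 21 and 13.4% ± 6.71 with p7N3. Without the limits on Lrrc15 and Gzme they were 35.7% ± 4.16, 29.5% ± 9.49, 59.0% ± 5.68 and 28.3% ± 5.90. The day 21 mean then lay above that of day 0 under both settings, opposite to the share by the stated rule. After thinning the libraries of day 21 (18.9 to 28.6%) and day 0 (14.3 to 25.2%) overlapped. Without the limits every day 21 library lay above every library of the other groups (day 21 against day 0 by 23.3 points, adjusted exact permutation p = 0.0571).

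**Figure D2:**
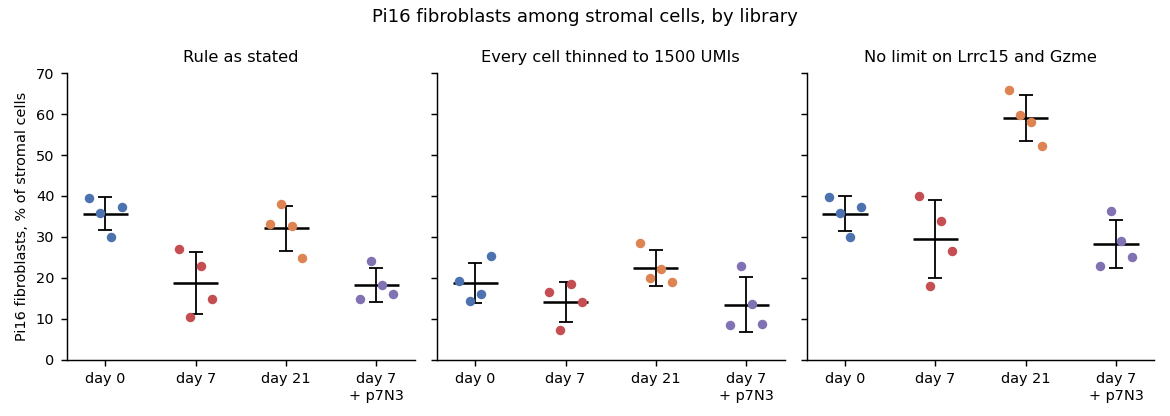
Pi16 fibroblasts as a percentage of stromal cells (y axis) in each library, by group (x axis), by the stated rule, after thinning every cell to 1500 UMIs and without the limits on Lrrc15 and Gzme. Points are libraries, bars the mean and whiskers the SD of 4 libraries, and the day 21 mean goes from 32.1% ± 5.45 to 59.0% ± 5.68 when the limits are lifted.

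Lrrc15, a membrane protein of activated fibroblasts, marked the cells that the rule set aside. Of stromal cells with at least 2 Pi16 UMIs, 0.833, 0, 0 and 0% in replicates 1 to 4 of day 0 also held a UMI of Lrrc15. The share was 25.2, 36.5, 29.3 and 39.1% at day 7, 49.2, 36.1, 43.9 and 51.5% at day 21 and 27.5, 27.8, 26.0 and 33.0% with p7N3. After thinning to 1500 UMIs it was 4.93 to 10.9%, 11.3 to 12.8% and 4.01 to 6.79%, and in thinned endothelial cells 0 to 0.966%, 0 to 0.633% and 0 to 1.32%. The Pi16 cells with Lrrc15 at day 21 held 2256 ± 256 CPM of Cthrc1 against 770.0 ± 148 in the members, 4103 ± 568 against 1892 ± 204 of Postn, which encodes the matrix protein periostin, and 1762 ± 218 against 888 ± 141 of Aspn, which encodes asporin. Several progenitor genes were lower in them, Clec3b at 899 ± 125 against 1653 ± 352 CPM and Dpp4 at 6.22 ± 1.83 against 21.4 ± 10.51, as was Pi16 itself at 1002 ± 160.4 against 1487 ± 155, whereas Mfap5, a microfibril gene, was at 2137 ± 195 against 2124 ± 279 and Sema3c, which encodes a semaphorin, at 175 ± 27.4 against 184 ± 24.95. These are means ± SD of 4 libraries with no test, since Lrrc15 chose the cells.

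The members were next compared with 2036 Pi16-null fibroblasts, stromal cells of the same 16 libraries that met the same limits but held 0 UMIs of Pi16. The median Pi16-null cell held 4288 to 5736 UMIs per library at day 0 and 9077 to 15856 at day 7. All 21 progenitor markers were higher in the members (edgeR's quasi-likelihood test with Benjamini-Hochberg adjustment, library as a block), among 11562 genes tested of which 13.6% were higher and 12.3% lower. Their median log2 fold change was 1.46, beside -0.01 over all genes. Of the genes called, 52.5% were higher in the members, but 45.9% with RLE factors and 44.9% with DESeq2. Dpp4 was at 100.2, 141, 121 and 82.8 CPM in the members of day 0 and 16.5, 12.7, 21.8 and 31.4 in the Pi16-null cells, and at 32.8, 16.4, 19.9 and 22.8 and 3.79, 1.08, 5.24 and 0.535 at day 7. It was higher in the members of all 16 libraries, 7.44-fold (log2 fold change 2.90 ± 0.19 SE, adjusted p = 7.77e-11). Dact2, an intracellular Wnt and TGF beta pathway regulator, led the list at 3.23 ± 0.21, with 126 ± 21.9 CPM in members and 4.54 ± 4.26 in Pi16-null cells at day 0.

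The margin of several markers differed between groups. For Clec3b the log2 fold change of members over Pi16-null cells was 0.91 at day 0 and 2.60 at day 7, and for Sfrp4, which encodes a secreted Wnt antagonist, -0.14 and 2.69. Dact2 went the other way, from 5.14 to 2.50. The tests of these differences follow with the time course. Cd55, which encodes an inhibitor of complement on the cell surface, had a log2 fold change between 1.76 and 2.54 in the 4 groups.

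**Figure D3:**
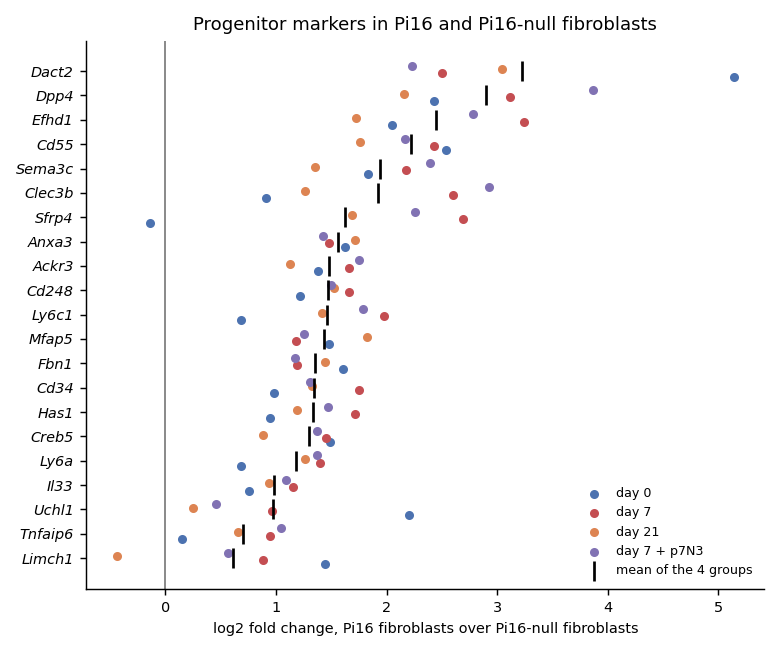
Log2 fold change of 21 progenitor markers in Pi16 fibroblasts over Pi16-null fibroblasts of the same libraries (x axis), by gene (y axis). Coloured points are the fitted values of the 4 groups and the black marks their mean, and the marks lie between 0.61 for Limch1 and 3.23 for Dact2.

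Most genes of elastic fibres and complement were higher in the members over the 4 groups together. Of 14 elastic fibre genes, 12 were higher and 2 lower (median log2 fold change 0.71), led by Efemp1 at 1.68, Mfap5 at 1.43, Emilin2 at 1.37 and Fbn1, which encodes fibrillin-1, at 1.35. The fibrillin gene Fbn2 and Emilin1 were lower, at -1.19 (-1.91 without day 0 replicate 2) and -0.43. Of 10 complement genes, 8 were higher and 1 lower (median 0.88), with C3, the central component, at 1.32 and C2 the lower one at -0.39, which did not pass among cells without endothelial UMIs (-0.27). The summed complement level was 4359.7 ± 254 CPM in members and 3958 ± 168 in Pi16-null cells at day 0, with overlapping libraries, and 3456 ± 278 and 1206 ± 315 at day 7. Of 21 proteases and inhibitors, 12 were higher and 3 lower, among the higher ones Pcsk6, a proprotein convertase, at 2.39 and Pcolce2, a procollagen C-proteinase enhancer, at 1.52. Of 13 collagens, 7 were higher and only Col11a1, a collagen of cartilage, was lower, at -1.62.

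Krtdap, named for keratinocyte differentiation, had the largest margin in the members among genes that passed, went the same way in all 16 libraries and averaged at least 30 CPM in the higher class. It stood at 101, 107, 105 and 207 CPM in the members of day 0 and 34.1, 0, 14.1 and 22.2 in Pi16-null cells, a log2 fold change of 4.22 ± 0.25 over all groups. Cmah, an enzyme of sialic acid modification, at 3.06, and Cadm3, a cell adhesion molecule, at 2.52, were among the 8 largest as well. The 8 largest margins on the lower side held Spp1, which encodes osteopontin, at -3.42, with 144 ± 69.4 CPM in members and 1644 ± 508 in Pi16-null cells at day 7. They also held the endothelial genes Cdh5, Esam and Gpihbp1, at -2.83, -2.87 and -2.78, and Gpihbp1 was at -0.62 and did not pass among cells without endothelial UMIs.

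The Pi16-null cells were a mixed class. All 5 endothelial markers were lower in the members, and their summed level was 27.3 to 120.3 CPM in members and 285 to 539 in Pi16-null cells at day 0, with Pecam1 and Cdh5 the most abundant in the 2 classes and none at 0 over all libraries. Their part in these results was not tested by itself, but with the 1942 members and 1621 Pi16-null cells that held no UMI of these markers, 2048 genes differed, against 2987 with all cells. Of 16 chondrogenic and osteogenic genes 7 were lower in the members and 1 was higher. Col2a1, the collagen of cartilage, was at 34.5, 198, 40.6 and 25.9 CPM in the members of day 21 and at 231, 1770.5, 4183 and 2990.4 in Pi16-null cells (log2 fold change over all groups -3.56). The call was lost without day 0 replicate 3 (-4.24), day 0 replicate 4 (-3.14) or p7N3 replicate 2 (-3.11), and among cells without endothelial UMIs (-3.58). All 8 monocyte/macrophage markers were lower in the members too, at 675 to 1257 against 2284 to 2788 CPM in sum at day 7.

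Day 7 was compared with day 0 to follow the members into the injury. Of 7691 genes tested, 1243 rose and 1217 fell (edgeR's quasi-likelihood test, adjusted p below 0.05), which is 16.2% and 15.8%, or 32.0% in either direction. Genes that passed, did not overlap between the groups and averaged at least 30 CPM in the higher group were ranked by fitted fold change. The 8 largest rises were those of Cxcl5, Saa3, Il1rl1, Tnn, Hp, Aqp5, Chl1 and Slpi. Of these, Cxcl5 encodes a chemokine for neutrophils, Saa3 and Hp acute phase proteins, Il1rl1 the receptor of IL-33 and Tnn a tenascin. Aqp5 encodes a water channel, Chl1 a cell adhesion molecule and Slpi a protease inhibitor. All 8 had at most 2 UMIs in the members of day 0, entered the test through day 7 alone and could not be called lower. Tnn, Aqp5 and Il1rl1 had 0 and are known only as at least 29.3-fold, 29.3-fold and 35.1-fold higher. The tenascin gene Tnc (ratio 208) and Fbn2 (151) lie above these bounds, so that the place of these genes among the 8 is not fixed.

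RefSeq start sites (GRCm38.p6) gave a promoter for 6 of these 8 genes, and the 250 bases before the start are shown for the 4 genes that held a match to a motif of inflammatory gene control. A match is a run of letters and no measured site. The motifs searched on both strands were TTGCNNAA for C/EBP, GGG, any 2 bases and TTTCC for NF-kappaB, and TGANTCA for AP-1. No match of one overlapped a match of another here, and matches are in capitals.
Saa3: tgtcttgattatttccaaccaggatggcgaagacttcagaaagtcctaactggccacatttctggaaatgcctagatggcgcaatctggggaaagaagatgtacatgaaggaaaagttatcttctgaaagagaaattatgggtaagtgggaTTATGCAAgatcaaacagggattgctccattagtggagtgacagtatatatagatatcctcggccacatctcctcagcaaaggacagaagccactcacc
Il1rl1: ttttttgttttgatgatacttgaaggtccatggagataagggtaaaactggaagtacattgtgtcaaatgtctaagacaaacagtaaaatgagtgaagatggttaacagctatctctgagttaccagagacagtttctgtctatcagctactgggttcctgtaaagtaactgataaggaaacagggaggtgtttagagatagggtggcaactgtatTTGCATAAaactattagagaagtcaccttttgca
Slpi: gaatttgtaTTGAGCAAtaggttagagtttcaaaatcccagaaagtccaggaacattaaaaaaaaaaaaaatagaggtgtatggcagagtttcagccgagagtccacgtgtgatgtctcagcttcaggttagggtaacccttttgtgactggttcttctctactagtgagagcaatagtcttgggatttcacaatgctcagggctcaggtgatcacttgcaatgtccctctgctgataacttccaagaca
Tnn: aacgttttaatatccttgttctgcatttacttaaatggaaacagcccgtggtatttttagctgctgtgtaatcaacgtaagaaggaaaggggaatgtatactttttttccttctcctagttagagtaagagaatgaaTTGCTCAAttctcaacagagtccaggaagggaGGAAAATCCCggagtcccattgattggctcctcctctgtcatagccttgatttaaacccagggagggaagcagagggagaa
All are written 5′ to 3′ on the strand of the gene. They are Saa3 (chr7:46715677-46715926, minus strand), the first of 2 Il1rl1 starts (chr1:40429320-40429569, plus strand), Slpi (chr2:164356508-164356757, minus strand) and Tnn (chr1:160153576-160153825, minus strand). Each held 1 C/EBP match, starting 99 bases before the start in Saa3, 34 in Il1rl1, 241 in Slpi and 113 in Tnn, and Tnn also held an NF-kappaB match 81 bases before. The other Il1rl1 start and the promoters of Aqp5 and Chl1 held none of these letters. Of 32851 mouse promoters of the same length, 9.56% held the C/EBP letters, 1.41% those of NF-kappaB and 6.75% those of AP-1, and binding was not measured.

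Cxcl5 (ENSMUSG00000029371, chr5:90759360-90761624, plus strand) had no UMI in the members of day 0 and stood at 243, 187, 538 and 382 CPM at day 7. Against a floor of 3 UMIs over day 0 this was at least 262-fold higher (adjusted p = 1.52e-08). Saa3, with 0 UMIs at day 0 and 118, 136, 417 and 181 CPM at day 7, was at least 168-fold higher (adjusted p = 5.51e-07). Both were near 0 in endothelial cells at day 7, with 8.75 ± 4.67 and 1.75 ± 0.973 CPM. Hp was at 1.17, 0, 0 and 1.97 CPM, or 2 UMIs in all, at day 0 and at 244, 293, 529 and 429 CPM at day 7, a ratio of 416 with a 95% counting interval of 115 to 3441 (adjusted p = 7.63e-11). Il1rl1 and Tnn, each without a UMI at day 0, reached 25.8, 35.6, 72.1 and 55.0 and 35.3, 24.1, 33.4 and 70.8 CPM, at least 35.1-fold and 29.3-fold higher. None of these groups overlapped. As these genes entered the test through day 7 alone, a rise was the only call that it could return for them.

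Most chemokines and cytokines that were tested rose. Of 17, 13 rose and 3 fell (median log2 fold change 1.66, beside -0.01 over all genes). Genes without a UMI at day 0, such as Cxcl5, entered the test through day 7 alone. They could not be called lower, so that the count leans to rises. Cxcl12, which attracts lymphocytes and marrow cells, went from 259.8, 209.8, 239 and 252 CPM to 1138, 1407, 1412 and 1475 CPM, 5.95-fold (log2 2.57 ± 0.13, adjusted p = 6.36e-11). The day 0 libraries lay close together and far below those of day 7. The monocyte attractant Ccl7 rose 5.03-fold, from 243 ± 117 to 1123 ± 178 CPM, and Il33, an alarmin that binds the product of Il1rl1, from 65.5 ± 9.67 to 171 ± 33.0 CPM. Ccl11, the eotaxin gene, Tslp and Csf1 fell.

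Progenitor markers mostly fell. Of 21, 15 fell and 3 rose (median -1.11), and their summed level went from 19029 ± 1039 to 11773 ± 1448 CPM. Clec3b was at 3567, 4341, 4221 and 4049 CPM at day 0 and 1851, 1585, 1439 and 1078 CPM at day 7, 2.56-fold lower (adjusted p = 6.88e-07). Dpp4 fell 4.29-fold, from 100.2, 141, 121 and 82.8 to 32.8, 16.4, 19.9 and 22.8 CPM, and Dact2 5.40-fold, from 114, 151, 136 and 103 to 48.4, 11.5, 9.56 and 10.1 CPM. Day 0 lay above day 7 in every library for all 3 genes. For Dact2 day 7 replicate 1 stood above the other day 7 libraries, and without it the log2 fold change went from -2.43 to -3.48. The list also held Cd34, a sialomucin of progenitors and endothelium, which fell from 1121 ± 55.3 to 484 ± 104 CPM, and Limch1, an actomyosin regulator, from 74.7 ± 10.0 to 7.86 ± 5.43. The genes that rose were Sfrp4, from 195, 296, 366 and 298 to 882, 926, 749 and 465 CPM, Il33 and Tnfaip6, a hyaluronan-binding protein. Ly6a, Cd248 and Has1 did not pass, at log2 fold changes of -0.17 ± 0.13, -0.19 ± 0.12 and 0.20 ± 0.23. With cells that held Lrrc15 or Gzme let in, Ly6a and Cd248 passed, at -0.48 and -0.53.

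The 8 largest falls by the same rule were those of Ptprb, Smpd3, Stmn4, C7, Meox1, Angptl7, Tmem204 and Zbtb16. Smpd3, a neutral sphingomyelinase, went from 150.3, 206, 245 and 308 to 10.7, 3.85, 7.96 and 6.32 CPM (27.1-fold), and Stmn4, a microtubule regulator, from 204 ± 47.3 to 7.79 ± 4.93 CPM. Ptprb, a phosphatase of endothelium, was at 73.4, 313, 72.04 and 84.8 CPM in members and 1084 ± 191 in endothelial cells of day 0, and its part from endothelial RNA was not tested. Genes of resting fibroblasts fell in 10 of 15 cases and rose in 2 (median -1.35). Myoc, which encodes the extracellular protein myocilin, fell from 1161, 1053, 1106 and 1258 to 124, 51.0, 156 and 80.9 CPM, 10.2-fold. Gsn, the actin-severing protein gelsolin, fell 12.2-fold, from 24483, 21683, 22553 and 19093 to 1934, 1629.9, 1762 and 1455 CPM. No library of day 7 reached the lowest day 0 library for Smpd3, Myoc or Gsn.

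Activated fibroblast genes rose in 13 of 17 cases and fell in 2 (median 3.15), in cells that the rule required to lack Lrrc15. A gene almost absent at day 0 could enter the test only through day 7 and could not be called lower. The count and the median therefore lean to rises. Cthrc1 went from 12.8, 27.5, 3.89 and 5.92 CPM at day 0 to 983, 1349, 1432 and 1159 CPM at day 7, 117-fold (log2 6.87 ± 0.27, adjusted p = 1.10e-12), while endothelial cells of day 7 held 126 ± 39.7 CPM. Postn rose from 466, 275, 393 and 317 to 2919, 3168, 3165 and 3003 CPM, 8.85-fold. Timp1, an inhibitor of matrix metalloproteinases, went from 57.1, 82.6, 29.2 and 33.5 to 852, 626, 1221 and 1071 CPM, 20.7-fold. In each of these 3 genes the 2 groups were wide apart. Aspn and Loxl2, a lysyl oxidase, fell. Of 13 collagens 8 rose, Col1a1 from 7769 ± 1251 to 19441 ± 2271 CPM, and 2 fell.

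Secreted Wnt antagonists rose in 4 of 5 cases (median 3.27). Sfrp1 rose from 48.9, 34.4, 33.1 and 82.8 to 751, 871, 1106 and 861 CPM, 18.6-fold (adjusted p = 7.63e-11), and Sfrp2 from 278, 110.1, 321 and 209 to 1543, 3113, 2063 and 1891 CPM, 9.65-fold. Both groups of libraries were apart, and Dkk3 rose while Dkk2 fell. Of 23 BMP and TGF beta genes 9 fell and 4 rose. Bmp4, a ligand that drives bone formation, fell from 113, 55.0, 68.1 and 31.6 to 6.15, 11.5, 6.37 and 2.53 CPM (10.7-fold), and Id1, a target of BMP signals, from 37.3 ± 6.80 to 4.63 ± 2.15. Growth factors rose in 9 of 17 cases, among them Ptn and Mdk, which encode the heparin-binding factors pleiotrophin and midkine. Ptn went from 8.16, 3.44, 3.89 and 21.7 to 562, 622, 739 and 154 CPM, 56.4-fold (log2 5.82, 6.54 without day 0 replicate 4), and Gas6, a ligand of TAM receptors, from 160.0 ± 49.2 to 1208 ± 176 CPM.

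Complement genes split. C4b (ENSMUSG00000073418, chr17:34728380-34743882, minus strand), whose reads may be shared with its close copy C4a, rose from 69.9, 99.8, 62.3 and 84.8 to 277, 357, 309.8 and 277 CPM (4.19-fold) with C2, Cfb and C1s1, whereas C3 fell from 1069, 1279.7, 1277 and 1513 to 513, 630.2, 722 and 725 CPM (1.87-fold) with C7 and Cd55. The elastic fibre genes split as well, with 7 higher, Fbn2 and Mfap2 among them, and 4 lower, Efemp1, Emilin2, Mfap5 and Fbn1. Of 19 proteases and inhibitors 7 rose and 11 fell. Of 14 cell cycle genes, 8 passed the filter on low counts, and of these 7 rose and Pcna fell. Some entered through day 7 alone, where the filter favours a rise, so that no conclusion is drawn from this count. The summed level of all 14 went from 96.1 ± 8.75 to 285 ± 33.1 CPM. Of 9 chondrogenic and osteogenic genes tested 5 rose. Among them Acan, which encodes aggrecan, went from 0 UMIs to 23.0 ± 12.5 CPM, at least 18.8-fold. Acan entered the test through day 7 alone and could not be called lower, so that its rise says nothing of the list. Smaller counts passed in the lists of retinoic acid genes (4 higher, 2 lower of 9) and immediate early and heat shock genes (6, 3 of 21). The same holds for oxidative stress and metallothionein genes (3, 2 of 12) and interferon-stimulated genes (2, 2 of 12). Over all genes 16.2% were higher and 15.8% lower, and the interferon counts lie near these shares.

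Transcripts of blood and immune cells moved with the injury in the members. The 8 monocyte/macrophage markers summed to 108 to 163 CPM at day 0 and 675 to 1257 at day 7, with 6 of 6 tested higher. Markers almost absent at day 0 could enter the test only through day 7, so that this count leans to rises. Lyz2 was the most abundant, at 375 ± 169 CPM in members and 222 ± 55.9 in endothelial cells. The 3 granulocyte markers summed to 1.95 to 17.2 and 41.4 to 244 CPM, led by S100a8. The 4 erythrocyte genes, led by Hbb-bs, stood at 547 to 987 CPM at day 0 and 159 to 5487 at day 7, where replicates 2 and 3 were high. None of these lists had a gene at 0 over all 16 libraries, and their part in the changes above was not tested. Lymphocyte, keratinocyte and adipocyte markers summed to at most 4.66 CPM in any library, with Cidec at 0. Schwann cell markers stood at 28.0 to 65.4 CPM at day 0 and 1.92 to 7.79 at day 7, skeletal muscle genes at 58.5 to 158 and 10.7 to 80.4, mural cell markers at 23.4 to 44.7 and 54.4 to 135, and the 5 genes common to fibroblasts at 26119.7 to 33975 and 39609.7 to 51032. Among members with no UMI of Ptprc, 2416 genes passed, against 2460.

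**Figure D4:**
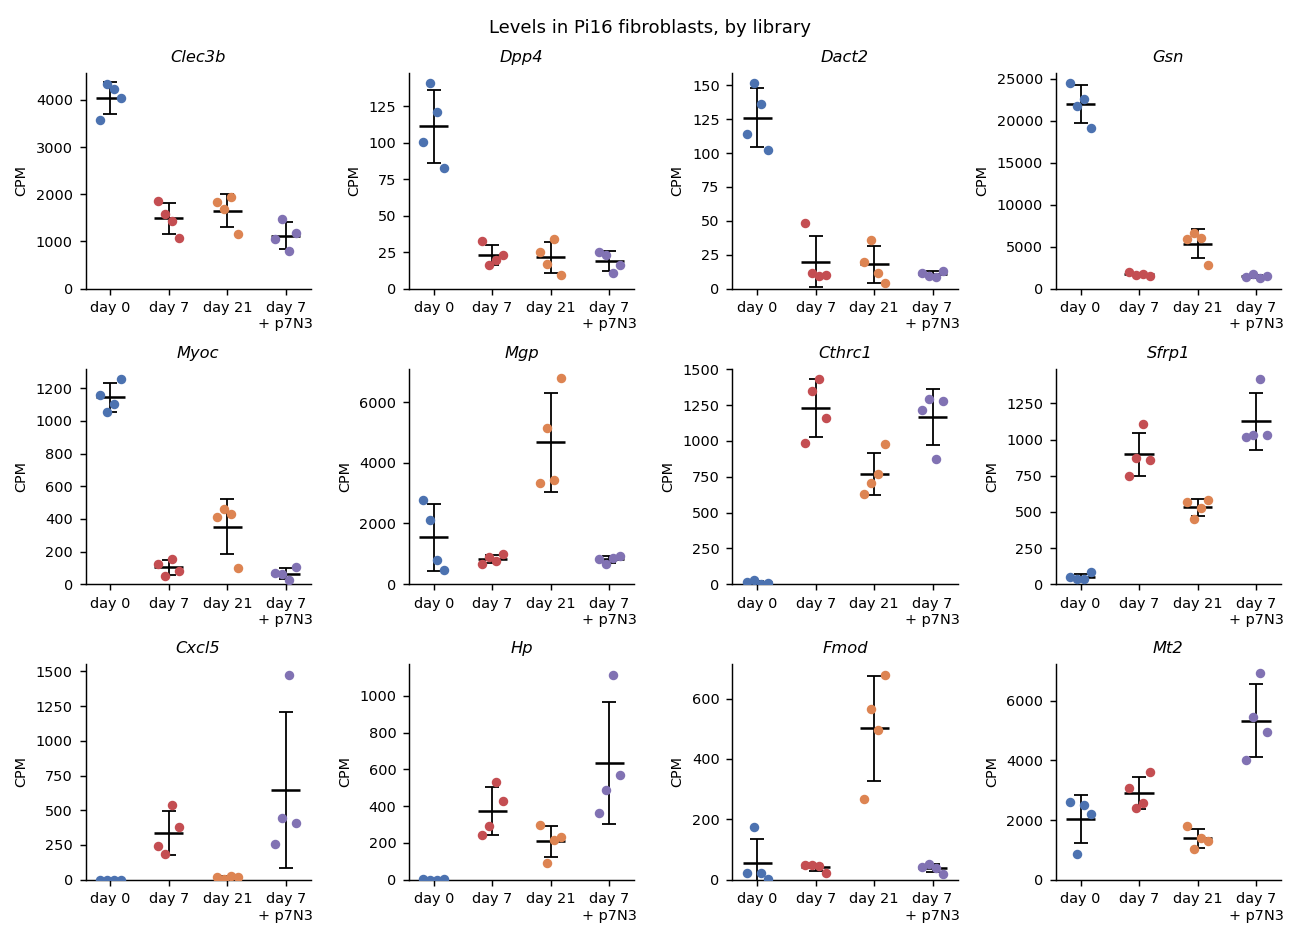
CPM (y axis, linear from 0) of 12 genes in the Pi16 fibroblasts of each library, by group (x axis). Points are libraries, bars the mean and whiskers the SD of 4 libraries, and Clec3b, Dpp4, Dact2, Gsn and Myoc are highest at day 0, Cthrc1 and Sfrp1 at day 7 with or without p7N3, and Mgp and Fmod at day 21.

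Day 21 was compared with day 0 and, to see which changes lasted, with day 7. Both comparisons share libraries with the one above. Against day 0, 829 genes rose and 833 fell of 7996 tested (10.4% each), and against day 7, 528 rose and 515 fell of 9642 (5.48% and 5.34%). Without day 7 replicate 3 the latter count was 647 genes in all, against 1043. It also depended on how members were chosen, with 2066 genes when cells with Lrrc15 or Gzme were let in and 150 when cells thinned to 1500 UMIs were chosen with a Pi16 minimum of 1 in place of 2, which changes both the depth and the limit.

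Most progenitor markers were below their day 0 level at day 21. Against day 0, 16 of 21 were lower and 2 higher (median -1.05), and against day 7, 4 were lower and 1 higher (median -0.12). Clec3b stood at 1843, 1680.4, 1938 and 1149.7 CPM at day 21 (log2 fold change 0.12 ± 0.17 against day 7, not passing) and Dpp4 at 25.3, 17.1, 33.9 and 9.48 CPM (-0.24 ± 0.31, not passing). For both genes the libraries of day 21 overlapped with those of day 7 and not with those of day 0.

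Genes of resting fibroblasts rose again. Against day 7, 11 of 15 rose and 0 fell (median 1.16, beside 0.00 over all genes). Mgp, which encodes an inhibitor of calcification, stood at 2783, 2116, 787 and 467 CPM at day 0, 676, 889, 778 and 985 at day 7 and 3323, 5157, 3424 and 6784 at day 21, 5.51-fold over day 7 (adjusted p = 1.79e-05) and 3.21-fold over day 0. All day 21 libraries were above all libraries of the other days. Gsn was at 5919, 6676, 6014 and 2855 CPM, 3.09-fold above day 7 and 3.96-fold below day 0. Myoc was at 409, 461, 432 and 100.4 CPM, again between the other days, though day 21 replicate 4 lay among the day 7 libraries. Inmt, an amine methyltransferase, rose 5.63-fold over day 7, and Hmcn2, which encodes hemicentin-2, 4.54-fold.

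Activated fibroblast genes fell in part. Against day 7, 5 of 18 activated fibroblast genes fell and 2 rose, while against day 0 15 of 17 were higher. The latter count leans to rises, since a gene almost absent at day 0 could enter the test only through day 21. Cthrc1 stood at 629.8, 708, 767 and 975 CPM, 1.63-fold below day 7 and 71.2-fold above day 0. With cells that held Lrrc15 or Gzme let in, its log2 fold change between day 21 and day 7 was -0.01, against -0.71. Postn stood at 1888, 1652, 1879 and 2149 CPM, 1.65-fold below day 7, and the 2 groups did not overlap. Of the inflammatory lists, 8 of 19 chemokines and cytokines fell from day 7 and 3 rose, and their summed level was 6441 ± 1001 CPM at day 7 and 5168 ± 1082 at day 21, with overlapping libraries. Cxcl5 was at 22.5, 3.94, 23.7 and 20.3 CPM, 19.4-fold below day 7 (adjusted p = 3.50e-05), and Il1rl1 at 12.8, 1.31, 5.08 and 1.72 CPM. Immediate early and heat shock genes fell in 9 of 21 cases, interferon-stimulated genes in 4 of 12 and cell cycle genes in 6 of 13. Both granulocyte markers tested and 6 of 7 monocyte/macrophage markers fell too, to 2.54 to 12.5 and 203 to 421 CPM in sum, and the 4 erythrocyte genes to 93.5 to 264 CPM. Genes almost absent at day 21 could enter this test only through day 7, where the filter favours a fall.

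Transcripts of tendon and cartilage marked day 21. All 6 tenocyte genes tested rose over day 7 (median 2.52), and 4 of 4 over day 0. Fmod (ENSMUSG00000041559, chr1:134037254-134048277, plus strand), which encodes the collagen-binding proteoglycan fibromodulin, stood at 21.0, 175, 23.4 and 1.97 CPM at day 0, 47.6, 48.1, 44.6 and 23.4 at day 7 and 266, 565, 496 and 678 at day 21, 12.0-fold over day 7 (adjusted p = 1.11e-05). Tnmd, the tendon membrane protein tenomodulin, went from 78.3, 57.7, 82.0 and 34.8 to 204, 416, 456 and 621 CPM, 6.47-fold, and the tendon transcription factor Scx 5.10-fold. The lowest day 21 library was above every library of day 0 and day 7 for Fmod and Tnmd. Chondrogenic and osteogenic genes rose in 5 of 10 cases over day 7. Col2a1, almost absent at day 7, entered the test through day 21 alone and could not be called lower, so that this count leans to rises. Col2a1 was at 2.05, 0, 1.19 and 0 CPM at day 7 and 34.5, 198, 40.6 and 25.9 at day 21, Acan at 25.01, 12.5, 39.8 and 14.5 and 88.7, 51.9, 121 and 131, and Comp, a cartilage and tendon matrix protein, at 156 ± 51.3 and 517 ± 198. Col2a1 in day 21 replicate 2 was far above the other day 21 libraries.

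Other cells of the same libraries held these transcripts as well. At day 21 Fmod was at 1158 ± 135 CPM in Pi16-null cells and 51.4 ± 19.4 in endothelial cells, Tnmd at 686 ± 47.0 and 47.6 ± 36.4, Acan at 235 ± 127 and 21.2 ± 12.6, and Col2a1 at 2294 ± 1692 and 24.4 ± 17.3. Summed tenocyte markers in members were 398 to 528 CPM at day 7 and 934 to 2569 at day 21, with Thbs4 the most abundant, and in endothelial cells 22.2 to 86.1 and 79.1 to 306. The level in members was several times that of endothelial cells for Fmod, Tnmd and Acan. Col2a1 outside day 21 replicate 2 was at 25.9 to 40.6 CPM in members, near the endothelial 24.4 ± 17.3 CPM. The part of free RNA in these levels was not tested. Angptl7, Isl1, a transcription factor, and Ptgs1, which encodes cyclooxygenase-1, were among the 8 largest falls from day 0, Isl1 from 26.8, 20.6, 33.1 and 49.3 to 2.81, 0, 0 and 0.431 CPM.

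Most collagens and growth factors were above day 0 at day 21. Collagens were higher in 10 of 13 cases and lower in 0 (median 0.70), and growth factors and IGF binding proteins were higher in 13 of 17 and lower in 3. Col1a1 stood at 17496 ± 2694 CPM and Ptn at 227 ± 87.4. Secreted Wnt antagonists were higher in 4 of 5 cases, with Sfrp1 at 568, 449.6, 529 and 582 CPM, 10.8-fold above day 0. Among members chosen on thinned cells with at least 1 Pi16 UMI, the test against day 7 was not passed by Cxcl5 (-2.74), Hmcn2 (2.02) and Postn (-0.30), nor that against day 0 by Fmod (1.84), Tnmd (1.31) and Mgp (1.09), values being log2 fold changes.

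The p7N3 libraries were compared with the day 7 libraries without p7N3 to ask whether the peptide changed these cells. None of 9162 genes passed (0.0% by edgeR's quasi-likelihood test), while 1201 had an unadjusted p below 0.05. DESeq2 called 67 and edgeR without a filter on low counts 288. With replicate numbers as a block edgeR called 162, among them Mt2, Mt1, Crabp2, Gdf10, Sepp1 and Il33, described below. The labels tie no replicate number to a shared animal, batch or day. The adjusted p was below 0.1 for 25 genes that were higher and 13 that were lower with p7N3. Leaving out 1 library gave 0 to 44 genes, with 44 without p7N3 replicate 1, 13 without day 7 replicate 4, 8 without p7N3 replicate 2 and 1 without day 7 replicate 1. By the main test no list had a gene that passed, and list medians lay between -0.25 and 0.29 on the log2 scale (all genes -0.01).

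The metallothionein genes Mt2 and Mt1, which bind metals, were among the genes near the threshold. Mt2 stood at 3074, 2415, 2554 and 3593 CPM at day 7 and 4025, 5457, 6916 and 4939.9 with p7N3 (log2 fold change 0.85 ± 0.16, adjusted p = 0.0558), and Mt1 at 3836, 3342, 3583 and 4522 and 4603, 6556, 7576 and 5775 (0.66 ± 0.14, adjusted p = 0.0736). Every p7N3 library lay above every day 7 library for both, and with replicate numbers as a block both passed. Both passed with DESeq2 (adjusted p = 6.35e-04 and 0.00694) and without p7N3 replicate 1 (0.0159 and 0.0253, edgeR). They also passed with edgeR in members with no UMI of Ptprc (0.0381 and 0.0489), and Mt2 without day 7 replicate 4 (0.0404). Without the filter on low counts both passed (3.92e-07 and 5.10e-05, edgeR). Their log2 fold changes were then 0.86 and 0.67, hardly larger than in the main fit. Crabp2, which carries retinoic acid in the cell, was at 52.9, 71.2, 102 and 111 and 144, 129, 305 and 201 CPM, again without overlap (1.17 ± 0.26, adjusted p = 0.1 by edgeR, 0.0498 without p7N3 replicate 1, 0.0489 in members with no UMI of Ptprc and 4.06e-07 without the filter).

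The genes near the threshold also held Gdf10 and Sepp1, with lower levels in p7N3 libraries, and Il33. Gdf10, which encodes a BMP family ligand, was at 95.1, 129, 86.0 and 55.0 CPM at day 7 and 49.4, 37.7, 31.6 and 35.8 with p7N3 (-1.25 ± 0.21, adjusted p = 0.0558). Sepp1, which encodes a selenium carrier, was at 653, 797, 585 and 666 and 445, 457, 456 and 490.1 CPM (-0.57 ± 0.11, adjusted p = 0.0558). Every p7N3 library lay below every day 7 library for both. Il33 was at 204, 366, 352 and 343 CPM with p7N3 and overlapped with day 7 (0.88 ± 0.18, adjusted p = 0.0672). With DESeq2, 1 edgeR fit of all groups and no filter on low counts, Gdf10 (adjusted p = 1.13e-04, 0.0372 and 8.62e-08), Sepp1 (0.00138, 0.037 and 0.00317) and Il33 (0.00262, 0.0449 and 1.29e-05) passed, as did Gdf10 and Sepp1 in members with no UMI of Ptprc (0.0381 and 0.0489). Gdf10 also passed without p7N3 replicate 1 (0.0264), without day 7 replicate 4 (0.00437) and among members chosen on thinned cells with at least 1 Pi16 UMI (0.0317), and Il33 without p7N3 replicate 1 (0.0133). Cxcl5 at 256, 446, 1477 and 406 CPM and Saa3 at 279.9, 114, 1721 and 195 CPM with p7N3 overlapped with day 7, and p7N3 replicate 3 was the highest library for both.

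No progenitor or matrix gene passed by the main test. Clec3b was at 1056, 1475, 789.9 and 1169 CPM with p7N3 (log2 fold change -0.43 ± 0.18), Dpp4 at 25.4, 22.9, 10.8 and 16.5 (-0.33 ± 0.25), Cthrc1 at 1213, 1295, 875 and 1276 (-0.11 ± 0.14) and Sfrp1 at 1015, 1034, 1421 and 1032 (0.30 ± 0.14). Dact2 was at 11.7, 9.42, 8.22 and 12.9 (-1.05 ± 0.47) and Sfrp4 at 309, 893, 402 and 329.7 (-0.65 ± 0.30), where p7N3 replicate 2 lay far above the other 3. In all 6 the libraries of the groups overlapped. Without day 7 replicate 1 the log2 fold change of Dact2 was 0.01, and without p7N3 replicate 2 that of Sfrp4 was -1.15 and passed (adjusted p = 0.0441, edgeR). Without the filter on low counts both passed (0.0355 and 0.026). Of the chondrogenic genes, Acan was at 32.9, 11.8, 36.7 and 22.3 CPM (-0.03 ± 0.35) and Col2a1 at 0, 0.336, 2.53 and 0 CPM, at which depth a difference was not detectable. Erythrocyte genes, high in day 7 replicates 2 and 3, were at 137 to 1635 CPM with p7N3, and granulocyte markers at 118 to 247 against 41.4 to 244 CPM.

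**Figure D5:**
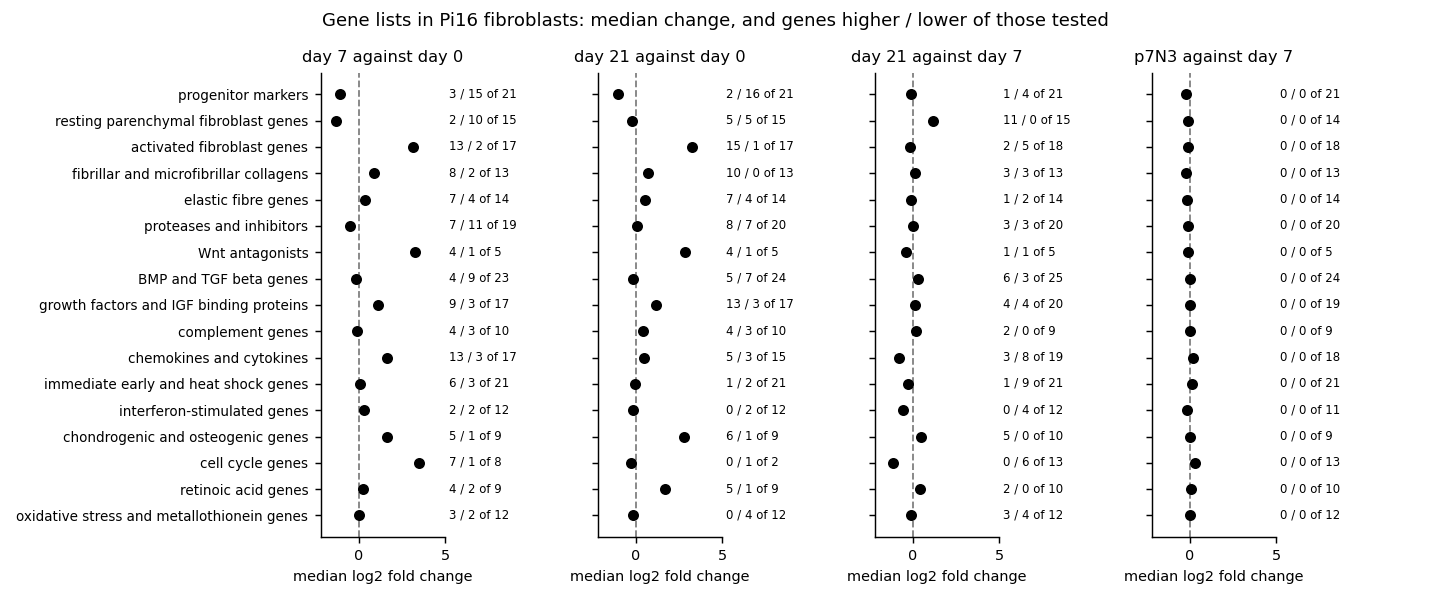
Median log2 fold change (x axis) of 17 gene lists (y axis) in Pi16 fibroblasts for 4 comparisons, with genes absent from a group at their bound. Numbers give genes that passed higher / lower of those tested and the dashed line is the median of all genes, and the progenitor list lies at -1.11 for day 7 against day 0 and -0.24 for p7N3 against day 7.

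Whether the injury changed the members differently from the Pi16-null cells was tested as an interaction. From day 0 to day 7, 538 of 11562 genes had a change that was more positive in the members than in the Pi16-null cells and 232 one that was more negative (4.65% and 2.01%). Of the genes called, 69.9% had the more positive change, against 62.2% with RLE factors and 60.9% with DESeq2. The count fell to 363 from 770 with cells of the 2 classes matched in UMIs, and to 461 without day 0 replicate 1. Complement genes passed in 8 of 10 cases, all with the more positive change in the members (median difference 1.68, beside 0.03 over all genes). C4b rose in the members, as given above, while in Pi16-null cells it went from 319, 203, 240.3 and 157 CPM at day 0 to 155, 58.9, 105 and 49.2 CPM at day 7, a difference of the log2 changes of 3.50 ± 0.37 (adjusted p = 3.03e-06). C2 went from 26.8, 17.2, 3.89 and 3.94 to 53.7, 54.8, 54.2 and 41.1 CPM in members and from 151, 292, 30.8 and 137 to 30.9, 25.9, 29.7 and 14.4 in Pi16-null cells (4.39 ± 0.34, 5.30 without day 0 replicate 1, adjusted p = 3.47e-08). In both genes the means of the 2 classes went in opposite directions between the days.

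Resting fibroblast genes passed in 9 of 15 cases, all with the more positive change in the members (median 1.69), which here was a smaller fall for Myoc and Gsn. Myoc in Pi16-null cells went from 991, 521, 1051 and 704 to 58.7, 7.56, 6.98 and 2.14 CPM, a smaller fall in the members by 2.40 ± 0.51 on the log2 scale that did not pass in cells matched in UMIs (1.66) and was 3.63 without day 7 replicate 1. Gsn went from 38430.4, 29649.5, 31408 and 27309 to 1047, 622, 815 and 413 CPM (1.91 ± 0.15). Of the progenitor markers 6 passed with the more positive and 1, Dact2, with the more negative change. Clec3b in Pi16-null cells went from 1912, 2020.2, 2782 and 2269 CPM to 291, 252, 414 and 157 CPM, so that its fall was smaller in the members by 1.69 ± 0.21 on the log2 scale (adjusted p = 1.72e-05). Sfrp4, which rose in the members, went from 218, 422, 447 and 263 to 221, 96.2, 148 and 71.1 CPM in Pi16-null cells (2.84 ± 0.38, adjusted p = 3.79e-05).

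Immediate early and heat shock genes passed in 15 of 21 cases and chemokines and cytokines in 9 of 21, all with the more positive change in the members. The summed level of the immediate early and heat shock genes was 9886 ± 1655 CPM at day 0 and 9868 ± 727 at day 7 in the members and 14151 ± 1621 and 7950.4 ± 1279.6 in Pi16-null cells. Cxcl12, which rose in the members, was at 868 ± 109.7 CPM in Pi16-null cells of day 0 and 1182 ± 379 at day 7 (2.18 ± 0.21). Of 28 BMP and TGF beta genes 6 passed with the more positive and 3 with the more negative change. Inhba, which encodes the activin A subunit, was at 16.3, 20.6, 25.3 and 23.7 and 5.33, 6.74, 3.58 and 3.16 CPM in members of day 0 and day 7 and at 2.35, 7.62, 14.1 and 1.85 and 19.6, 68.1, 111 and 62.0 in Pi16-null cells (-5.40 ± 0.62, adjusted p = 6.31e-06). The difference was -6.20 without day 0 replicate 3, -5.99 without day 7 replicate 1 and -4.74 without day 7 replicate 3. Ctgf, a matricellular protein, was at 303 ± 227 and 42.5 ± 17.2 CPM in members and 104 ± 64.5 and 148 ± 68.8 in Pi16-null cells (-3.27 ± 0.41). Inhba was thus lower at day 7 in every library of the members and higher in every library of the Pi16-null cells.

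By day 21, 129 genes had a more positive change in the members and 29 a more negative one (1.12% and 0.251%). The share with the more positive change was 81.6%, and it was 68.1% with RLE factors and 61.1% with DESeq2. In place of 158 genes, 75 were called without day 0 replicate 1, 101 without day 0 replicate 2 and 79 in cells without endothelial UMIs. Complement genes passed in 4 of 10 cases, C2 at 3.18 ± 0.33 (4.08 without day 0 replicate 1) and C4b at 2.06 ± 0.37, and resting fibroblast genes in 4 of 15. Sfrp1 was at 272 ± 69.6 CPM in Pi16-null cells of day 0 and 292 ± 10.8 at day 21, against 49.8 ± 23.1 and 532 ± 59.5 in members (3.37 ± 0.23, adjusted p = 9.55e-09). Between p7N3 and day 7 no gene passed the interaction test (0.0%, edgeR, with 586 at an unadjusted p below 0.05). DESeq2 called 0, and edgeR without the filter on low counts 102.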

How the data were processed

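In each of 16 libraries the measurement was the number of transcripts per gene and cell, by 3′ droplet sequencing. The deposited values were raw UMI counts per gene and barcode, made by the authors with Cell Ranger against mm10 per the methods, and the submitters' processing notes name mm10, GRCh38, Cell Ranger and Seurat. The matrices held 27998 mouse genes. A barcode was kept as a cell from 500 detected genes upward if mitochondrial transcripts made up no more than 25%, as the methods state. Doublets were not removed, and an alternative left out the top 3.9% of Scrublet scores (scanpy 1.11.5) of each library. Members and gene lists were chosen with earlier results of these data known. UMIs of the members, and of the Pi16-null fibroblasts, were summed per library (at least 10 cells), filtered with filterByExpr and tested with edgeR 4.0.16 (TMM, glmQLFit, glmQLFTest, R 4.3.3) within the 2 groups compared, and in 1 model of library plus class by group for the 2 classes. Benjamini-Hochberg adjustment was over all genes tested, and a gene passed below 0.05. DESeq2 1.42.0, RLE factors, other filters, thinned cells and each library left out were alternatives. Shares were compared with exact permutation tests, two-sided. Thinning drew 1500 UMIs from each cell and left out 1 member, of day 0.

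Besides Pi16, Clec3b, Sfrp4 and the genes of the rule, genes were named as the 8 largest changes in each direction that passed, did not overlap and averaged at least 30 CPM in the higher group, and as up to 4 genes per list. Other list genes given with values, such as C3, Postn, Ly6a, Cd248, Has1, Emilin1, Gdf10 and Sepp1, were chosen after their values were seen. Checked on simulated counts with 200 genes changed 2-fold, the test recovered 74% of them for day 7 against day 0, 63% for day 21 against day 0, 74.5% for day 21 against day 7, 78% for p7N3 against day 7 and 83% for the 2 classes, but 24.5%, 16.5% and 44.5% for the differences in change (day 7 and day 21 against day 0, p7N3 against day 7). Of the calls 9.2%, 7.35%, 6.29%, 6.02%, 3.49%, 2%, 0% and 8.25% were false in the same order. Replicate numbers were not used as pairs. Day 3 was left out of the comparisons. Intervals and floors cover counting error only.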

Additional observations from a re-analysis of the deposited data

Results flagged for a closer look

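A library stood apart from the other 3 of its group by Dixon's test in 29 of 292 sets of 4 member values, where chance gives about 1 in 20. In day 0 replicate 2, the outlying values were Fbn2 at 3.44 CPM against 0 to 0, Fmod at 175 CPM against 1.97 to 23.4, Mt1 at 1562 CPM against 3090.2 to 3284 and Ptprb at 313 CPM against 72.04 to 84.8. In day 0 replicate 3, the outlying value was Col2a1 at 1.95 CPM against 0 to 0. In day 0 replicate 4, the outlying value was Krtdap at 207 CPM against 101 to 107. In day 7 replicate 1, the outlying values were Dact2 at 48.4 CPM against 9.56 to 11.5, Limch1 at 15.99 CPM against 4.81 to 5.57 and Stmn4 at 15.2 CPM against 5.06 to 5.77. In day 7 replicate 4, the outlying values were C2 at 41.1 CPM against 53.7 to 54.8 and Fmod at 23.4 CPM against 44.6 to 48.1. In day 21 replicate 1, the outlying value was Isl1 at 2.81 CPM against 0 to 0.431. In day 21 replicate 2, the outlying values were Ccl7 at 117 CPM against 401 to 413 and Col2a1 at 198 CPM against 25.9 to 40.6. In day 21 replicate 4, the outlying values were Crabp2 at 208 CPM against 74.2 to 84.7, Inhba at 26.7 CPM against 7.22 to 10.50, Myoc at 100.4 CPM against 409 to 461, Pcolce2 at 72.9 CPM against 211 to 231 and Sfrp4 at 843 CPM against 1105 to 1127. In p7N3 replicate 1, the outlying values were Il33 at 204 CPM against 343 to 366 and Smpd3 at 15.8 CPM against 5.69 to 6.46. In p7N3 replicate 2, the outlying values were Pi16 at 2519 CPM against 1174 to 1345 and Sfrp4 at 893 CPM against 309 to 402. In p7N3 replicate 3, the outlying values were Col2a1 at 2.53 CPM against 0 to 0.336, Cxcl5 at 1477 CPM against 256 to 446, Gas6 at 1704 CPM against 1260.3 to 1292, Pcsk6 at 32.3 CPM against 58.5 to 61.1, Saa3 at 1721 CPM against 114 to 279.9 and Sfrp1 at 1421 CPM against 1015 to 1034. The range gives the other 3 libraries of the group. The values of Fbn2 and Col2a1 at day 0 are 1 UMI each, which stands apart from 3 values of 0 by construction and says nothing of the library.

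From day 0 to day 7, the change in Pi16 fibroblasts exceeded that in Pi16-null fibroblasts for C2 (4.39), Hp (4.09), Inmt (3.74), C4b (3.50), Gdf10 (3.36), Gas6 (2.95), Sfrp1 (2.90), Sfrp4 (2.84), Cadm3 (2.57), Myoc (2.40), Cxcl12 (2.18), Ccl7 (1.97), Gsn (1.91), Clec3b (1.69), Sepp1 (1.25), Mt1 (1.18), C3 (1.12), Mt2 (0.96), Cd34 (0.77), Ly6a (0.71) and Col1a1 (0.59), as differences of the log2 changes past the interaction test (edgeR, adjusted over 11562 genes). It was below that of Pi16-null fibroblasts for Inhba (-5.40), Ctgf (-3.27) and Dact2 (-2.64). From day 0 to day 21 it was above that of Pi16-null cells for Sfrp1 (3.37), C2 (3.18), Gas6 (2.39), C4b (2.06), Cxcl12 (1.97), Sfrp4 (1.83), Gdf10 (1.74), Mt1 (0.65) and Ly6a (0.57) and below it for Isl1 (-2.50), by the same test.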

How the results depend on the processing

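The share at day 21 against day 0, -3.52 points by the rule, was 2.03 points as a percentage of all kept cells, 3.69 on cells thinned to 1500 UMIs, 9.08 on thinned cells with at least 1 Pi16 UMI and 23.3 without the limits on Lrrc15 and Gzme, and the cause was not tested. The p7N3 share against day 7 was 0.202 points with at least 1 Pi16 UMI in place of -0.479. Without 1 library, the shares ranged from -19.6 to -14.0 points (day 7 against day 0), -5.46 to -1.07 (day 21 against day 0), 10.51 to 16.1 (day 21 against day 7) and -3.29 to 2.29 (p7N3 against day 7). At least 10 UMIs in every library, which leaves fewer genes, gave 1557 genes for day 7 against day 0, 1094 for day 21 against day 0 and 1429 between the 2 classes. Members chosen on thinned cells with a Pi16 minimum of 1 in place of 2, which are fewer, gave 871, 604, 150 (day 21 against day 7) and 1 (p7N3). Without the limits on Lrrc15 and Gzme 2845 and 2066 genes passed for day 21 against day 0 and day 7. For p7N3 against day 7, where 0 passed, DESeq2 called 67, no filter on low counts 288, cells with Ptprc at 0 23, leaving out the top Scrublet scores 2 and 1 fit of all groups 16. Differences in change numbered 468 without the filter and 79 in cells without endothelial UMIs (day 21 against day 0, main count 158), 363 with matched cells (day 7 against day 0, 770) and 102 without the filter (p7N3, 0). Without 1 library the counts ranged from 2107 to 2511 (day 7 against day 0), 1348 to 1678 (day 21 against day 0), 647 to 976 (day 21 against day 7, lowest without day 7 replicate 3), 0 to 44 (p7N3), 2574 to 2914 (2 classes), 461 to 784, 75 to 170 and 0 to 5 (differences in change). The cell set without endothelial UMIs was chosen after seeing the data.

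Replicate numbers as a block gave 162 genes for p7N3 against day 7 in place of 0, and moved no other count of calls by over 1.5 times. With the block, the adjusted p was 0.0205 for Mt2, 0.0323 for Mt1, 0.00363 for Crabp2, 0.00483 for Gdf10, 0.0167 for Sepp1 and 0.00483 for Il33 (edgeR). Deviations of same-numbered libraries correlated at 0.205, 0.122, 0.123 and -0.0404 in replicates 1 to 4 of this comparison (0.102 on average, other pairs -0.0343), and 6 of 8 libraries correlated best with their own number, a hint from the data that not every pair shows. In the other comparisons same-numbered libraries averaged -0.0362 to -0.0079. The labels tie no number to a shared animal, batch or day, and the numbers were therefore not taken as pairs. Of 635 gene results, 12735 values under alternatives kept their direction and side of the threshold, 474 no longer passed and 88 passed only there. 3 values reversed, all among members chosen on thinned cells with at least 1 Pi16 UMI: Hba-a1 at day 7 against day 0 (-1.04), Hmgb2 (-0.17) and Hba-a2 at day 21 against day 7 (0.0442). Day 0, with 2169624 member UMIs, limits what can be called from it, and the part of depth in the 0 calls for p7N3 was not tested.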

Other observations

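Tissue of day 3, of which 3 libraries were sequenced, was not among the comparisons. In them 46, 66 and 17 cells met the limits for Pi16 fibroblasts, 129 in all, or 19.9%, 18.4% and 11.3% of the stromal cells of these libraries. A further 8, 18 and 10 cells met every limit but that on the leukocyte gene Ptprc.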
